A study of Homo sapiens with 8 samples.

Results

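Long non-coding RNA (lncRNA) genes that were present in every library of a drug study on hepatocellular carcinoma (HCC) cells were examined. A gene was included when GENCODE release 44 calls it lncRNA, it lies on chromosomes 1 to 22, and its assembled transcripts summed to 1 FPKM or more in all 8 libraries. FPKM counts fragments per kilobase of a transcript, scaled to sequencing depth. NEAT1, MALAT1, H19, GAS5, ZFAS1 and the SNHG genes were left out by name, which removed 16 genes. This left 102 lncRNA genes, out of 18390 annotated lncRNA genes on these chromosomes, 2367 with an assembled transcript in at least 1 library, and 17250 genes of any type listed in at least 1 library. The genes were thus chosen by their measured FPKM in these libraries, so their presence in all of them is a description and not a result. Just inside the limit, MIR4458HG had a lowest level of 1.02 FPKM, LINC01311 of 1.06 FPKM and LINC01806 of 1.09 FPKM. Just outside it, GOLGA2P5 had 0.991 FPKM, WARS2-AS1 had 0.989 FPKM and ENSG00000290796 had 0.969 FPKM. No chosen gene could go below 1 FPKM after treatment, which limited how far a low gene could drop.

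The HCC cell lines HepG2 and Hep3B were each treated for 48 h with sodium pentaborate pentahydrate (NaB, a boron salt), with curcumin and piperine (Cur and Pip, or Cur/Pip), with the combination treatment of all these agents, or left without treatment as control. NaB was used at 2500 µM in HepG2 cells and at 1700 µM in Hep3B cells, and Cur at 30 µM with Pip at 6 µM in both. Each condition had 1 library, so no difference within a line has a replicate check. RNA was isolated in triplicate per the study's methods, and whether the isolates were pooled is not stated in the sources used here.

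The libraries labelled Hep3B went against their label in several marker genes. Of 20 hepatocyte marker genes, 15 to 19 reached 1 FPKM in the HepG2 libraries and 0 to 2 in the libraries labelled Hep3B, with sums of 7203 to 16009 FPKM against 0.456 to 5.99 FPKM. RB1, whose product Hep3B cells are known to lack, was at 8.89 to 21.1 FPKM in the libraries labelled Hep3B. VIM, which encodes the mesenchymal filament protein vimentin, was listed at 0 in all HepG2 libraries and at 255 to 411 FPKM in those labelled Hep3B. Of the same 4 fibroblast markers, PDGFRB was higher in HepG2 (1.90 to 6.03 against 0.313 to 1.11 FPKM). COL1A2 was listed at 0 throughout, and COL1A1 was at 3.99 FPKM or less. Of 5 epithelial markers, 5 reached 1 FPKM in the HepG2 libraries and 3 in those labelled Hep3B. A listed 0 is uncertain, as ALB and AFP were listed at 0 in the HepG2 control but at 2989 to 7518 and 356 to 818 FPKM after treatment. The 4 libraries with the Hep3B label are therefore called "labelled Hep3B" throughout. The libraries held an estimated 25.6 to 35.7 M fragments and 24846 to 36652 assembled transcripts. Single-exon transcripts made up 22.7% (NaB), 34.1% (Cur and Pip), 32.2% (combination) and 16.4% (control) of the transcripts in HepG2, and 19.1%, 22.4%, 28.4% and 14.7% in the same order in the libraries labelled Hep3B. Each treated library had a larger share than the control of its line, and the part of this share in the results below was not tested.

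LncRNAs are transcripts without a long open reading frame. Some act near their own gene, others bind proteins or microRNAs elsewhere in the cell, and others serve mainly as precursors of microRNAs or small nucleolar RNAs cut from their exons and introns. Several lncRNAs are induced by oxidative stress or by other cell stress, and several are known for their raised level in liver cancer. In bulk libraries a smaller share of cells with a transcript and less of that transcript per cell cannot be told apart.

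For 4 of the genes described below (MIR22HG, LUCAT1, LINC-PINT and CYTOR), picked after their values were seen, the sequence around the start site is shown, from 250 bases before to 50 bases after the RefSeq start (GRCh38.p14), so that the motifs described later can be seen. Capitals mark the motif matches. MIR22HG, the host gene of miR-22, has its window at chr17:1716161-1716460 on the minus strand. LUCAT1, a lncRNA known as a target of the oxidative stress factor NRF2, has it at chr5:91314353-91314652 on the minus strand. LINC-PINT, a stress-induced lncRNA, has it at chr7:131109876-131110175 on the minus strand. CYTOR, also known as LINC00152, has it at chr2:87455177-87455476 on the plus strand.
MIR22HG: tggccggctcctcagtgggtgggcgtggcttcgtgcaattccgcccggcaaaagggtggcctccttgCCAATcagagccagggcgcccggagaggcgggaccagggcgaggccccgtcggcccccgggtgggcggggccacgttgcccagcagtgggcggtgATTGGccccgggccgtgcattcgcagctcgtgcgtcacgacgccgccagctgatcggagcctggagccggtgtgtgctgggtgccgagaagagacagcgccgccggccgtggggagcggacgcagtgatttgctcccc
LUCAT1: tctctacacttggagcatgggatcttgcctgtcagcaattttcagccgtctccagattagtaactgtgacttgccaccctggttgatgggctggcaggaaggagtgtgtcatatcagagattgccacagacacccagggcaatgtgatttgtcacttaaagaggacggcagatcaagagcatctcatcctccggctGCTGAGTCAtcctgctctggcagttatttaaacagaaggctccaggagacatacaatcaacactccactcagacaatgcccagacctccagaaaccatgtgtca
LINC-PINT: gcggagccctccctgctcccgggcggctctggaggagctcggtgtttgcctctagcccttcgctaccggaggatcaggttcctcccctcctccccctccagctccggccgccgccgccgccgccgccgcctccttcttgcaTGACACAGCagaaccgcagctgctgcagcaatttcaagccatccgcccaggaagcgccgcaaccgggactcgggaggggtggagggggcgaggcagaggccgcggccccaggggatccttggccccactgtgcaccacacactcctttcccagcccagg
CYTOR: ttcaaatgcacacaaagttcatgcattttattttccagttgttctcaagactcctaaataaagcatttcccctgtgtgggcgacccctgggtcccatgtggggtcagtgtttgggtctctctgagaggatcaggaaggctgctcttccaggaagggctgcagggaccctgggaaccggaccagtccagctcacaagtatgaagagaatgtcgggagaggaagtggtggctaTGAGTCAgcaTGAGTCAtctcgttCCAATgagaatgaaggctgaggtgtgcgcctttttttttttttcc

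Of the 102 genes, 17 hold a microRNA or small nucleolar RNA gene within their span. The mature microRNAs of MIR22HG, LINC-PINT and DLEU2 are shown next with the seed (bases 2 to 8) in capitals. The libraries did not measure mature microRNAs. miR-29a and miR-29b, inside LINC-PINT, have the same seed, and so do miR-15a and miR-16, inside DLEU2, while miR-22 has its own.
miR-22-3p: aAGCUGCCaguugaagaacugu
miR-29a-3p: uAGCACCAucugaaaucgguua
miR-29b-3p: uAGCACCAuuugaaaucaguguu
miR-15a-5p: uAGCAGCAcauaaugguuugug
miR-16-5p: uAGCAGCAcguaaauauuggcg

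Most of the 102 genes were expressed at a low level. The median was 6.47, 6.60, 5.498 and 4.50 FPKM in HepG2 after NaB, Cur/Pip, the combination, and in the control, and 6.54, 8.35, 7.95 and 6.502 FPKM in the same order in the Hep3B-labelled libraries. Protein-coding genes that met the same level rule had medians of 14.0 to 16.5 FPKM. The summed level was 1274, 1616 and 1783 FPKM in treated HepG2 libraries (NaB, Cur/Pip, combination) and 941 FPKM in the HepG2 control. In the Hep3B-labelled libraries it was 1381, 1499 and 1480 FPKM after treatment and 1319 FPKM in the control. The sum was higher in each of the 6 treated libraries than in its control. The genes lie on all 22 autosomes, with 15 on chromosome 7. An annotated intron was assembled in all 8 libraries for 87 of them and in none for 8. By position, 54 overlapped no protein-coding gene, 19 lay antisense to one, 18 started head to head with one (opposite-strand starts within 2000 bases), 10 shared exons with one on the same strand, and 1 lay within or across one without shared exons. For 27 genes, 10% or more of the longest transcript had a near-identical copy (98% identity over at least 100 bases) elsewhere in the annotation, and reads of such copies cannot be assigned with certainty.

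By mean log2(FPKM + 1) over the libraries, CYTOR, MIR4435-2HG, NORAD, ENSG00000288663 and FGD5-AS1 came first. NORAD, a cytoplasmic lncRNA that binds PUMILIO proteins, was at 109, 103 and 126 FPKM in HepG2 after NaB, Cur/Pip and combination treatment, and at 89.5 FPKM in the control. Hep3B-labelled libraries had NORAD at 30.4, 38.4 and 34.5 FPKM after these treatments and at 43.98 FPKM in the control. NORAD was above its control in all treated HepG2 libraries and below it in all treated libraries labelled Hep3B, by no more than 0.52 on the log2 scale. FGD5-AS1 was at 27.1 to 51.4 FPKM over the 8 libraries. CHASERR, a lncRNA that acts on its neighbour CHD2, was at 19.3 to 22.8 FPKM in the HepG2 libraries and at 36.1 to 46.7 FPKM in those labelled Hep3B. The smallest ranges over all libraries belonged to LINC01806, HERC2P3 and ANAPC1P2. HERC2P3, a HERC2 pseudogene transcript, was at 2.31 FPKM (NaB), 4.14 FPKM (Cur/Pip), 3.54 FPKM (combination) and 2.61 FPKM (control) in HepG2, against 2.31, 3.92, 3.54 and 2.61 FPKM in the Hep3B-labelled libraries.

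The first question was which of these lncRNAs differed from control after each treatment. Fold changes were taken as differences of log2(FPKM + 1), and a gene counted as past the threshold at an absolute difference above 1.5, the limit the study's methods give. The same count over all 7857 genes of any type that met the level rule is given beside each. By that rule no gene could be under 1 FPKM, so a gene with a low control level could not pass the threshold on the lower side. The lncRNAs had lower levels than protein-coding genes (medians of 4.50 and 14.9 FPKM in the HepG2 control), so this limited them more. The split into higher and lower is thus partly set by the selection. In HepG2, NaB gave 8 lncRNAs higher and 0 lower, where 2.80% of all genes were past the threshold (1.26% higher and 1.54% lower). With Cur/Pip in HepG2, 13 lncRNAs were higher and 1 was lower, where 10.1% of all genes were past it (4.51% higher and 5.64% lower). The combination in HepG2 had 13 higher and 2 lower, where 9.85% of all were past it (4.38% higher and 5.47% lower). For NaB in Hep3B-labelled libraries the count was 4 higher and 2 lower (4.39% of all, 1.23% higher and 3.16% lower). For Cur/Pip there it was 4 higher and 1 lower (2.27% of all, 1.41% higher and 0.853% lower), and for the combination 6 higher and 3 lower (5.65% of all, 2.10% higher and 3.55% lower). As shares of the 102 genes these counts are 7.84%, 13.7% and 14.7% in HepG2, and 5.88%, 4.90% and 8.82% in the Hep3B-labelled libraries. In all, 36 genes passed the threshold in at least 1 of the 6 comparisons and 66 in none, a count that was not made over all genes. By depth over annotated exons, also with a constant of 1, 11 genes passed it in at least 1 comparison. By this depth the lncRNA share was close to or below that of all genes, except after Cur/Pip in the Hep3B-labelled libraries. The higher lncRNA shares by FPKM in HepG2 were not seen by exonic depth with this constant. Exonic depth runs lower than FPKM, so the constant of 1 weighs more. A count with a smaller constant was not made over all genes, so the shares cannot be compared without its effect.

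The lncRNAs lay to the higher side in HepG2, where the level rule left them less room to drop than protein-coding genes. Their median log2 fold change was 0.34 after NaB, 0.54 after Cur/Pip and 0.30 after the combination, where protein-coding genes at the same level rule had medians of -0.01, -0.04 and -0.03. After Cur/Pip, 74 of 102 lncRNAs and 3625 of 7628 protein-coding genes were above control. In the Hep3B-labelled libraries the medians were 0.06, 0.22 and 0.13 after the same treatments, against -0.15, -0.03 and -0.09 in protein-coding genes. The 27 genes with a near-identical copy had a median of 0.82 after Cur/Pip in HepG2 and the other 75 genes a median of 0.31. When depth was counted only over the annotated exons of each gene, the HepG2 medians were 0.20, 0.26 and 0.22.

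**Figure D1:**
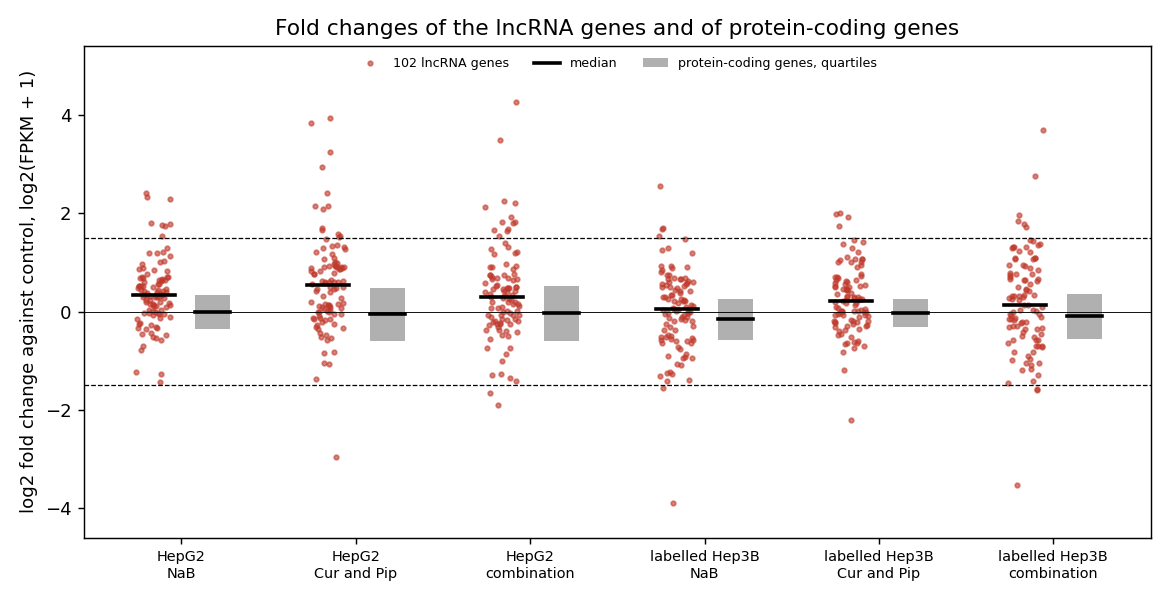
Log2 fold change against control (y axis, log2(FPKM + 1) scale) of the 102 lncRNA genes (points) in 3 treatments and 2 lines, beside the quartiles of 7628 protein-coding genes (grey bars). Black lines are medians and dashed lines the threshold of 1.5, and in each of the 6 comparisons the lncRNA median (0.06 to 0.54) lies above that of the protein-coding genes (-0.15 to -0.01). The level rule limits how far low genes can drop, and the lncRNAs had the lower levels.

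A fit over both lines was then made with limma, which treats the line as a block and uses log2(FPKM + 1) of 15445 genes. With 1 library per line and treatment it leaves 3 residual degrees of freedom. No lncRNA passed a Benjamini-Hochberg adjusted p of 0.05 in limma for NaB (0% of all genes called), Cur/Pip (0.0259%) or the combination (0.0712%). The lowest adjusted p of a lncRNA was 0.898, 0.615 and 0.272 for these contrasts. At an unadjusted p under 0.05, 6, 13 and 17 of the 102 genes were found, beside 4.70%, 5.93% and 10.7% of all genes. In data simulated at this size, limma recovered 0% of changes of 3 on the log2 scale and 89.8% of changes of 6 in the combination contrast, so 0 calls does not show that levels stayed the same.

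MIR22HG (ENSG00000186594, chromosome 17, 1711447 to 1717174, minus strand, GRCh38) had the widest range of the 102 genes. It was at 5.499 FPKM after NaB, 74.2 FPKM after Cur/Pip, 92.2 FPKM after the combination and 3.89 FPKM in control HepG2 cells. Cells labelled Hep3B had it at 1.56, 9.49 and 17.7 FPKM after the same treatments and at 1.78 FPKM in the control. Both libraries of each line that received Cur/Pip were high and both without it were low. The log2 fold changes were 3.94 (Cur/Pip) and 4.25 (combination) in HepG2, and 1.92 and 2.75 in the Hep3B-labelled libraries, and NaB gave 0.41 and -0.12. Over both lines limma gave 2.93 ± 0.57 (SE) for Cur/Pip with an unadjusted p of 0.00319 and an adjusted p of 0.615, and 3.50 ± 0.57 for the combination with an adjusted p of 0.272. The assembly gave 95% intervals of 71.5 to 77.0 FPKM after Cur/Pip and 3.45 to 4.33 FPKM in the HepG2 control, which cover the estimate within 1 library only. Over annotated exons alone the fold changes were 3.72 and 3.89 in HepG2 and 1.49 and 2.47 in the Hep3B-labelled libraries. MIR22HG was the 1 gene of the 102 past the threshold in both lines after the combination, where 1.82% of all genes at the level rule were past it in the same direction in both lines and 0.687% were higher in both. All of its transcripts crossed the exon of miR-22, whose seed is printed above.

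The next gene on the opposite strand, WDR81, starts 651 bases from MIR22HG. WDR81, an endosomal trafficking protein, was at 18.6, 6.37 and 8.69 FPKM after NaB, Cur/Pip and combination treatment in HepG2, and at 30.4 FPKM in the control. It was lower where MIR22HG was higher in HepG2, with log2 fold changes of -2.09 after Cur/Pip and -1.70 after the combination. WDR81 in Hep3B-labelled libraries was at 4.14, 6.93 and 6.37 FPKM after treatment and at 5.10 FPKM in the control.

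LUCAT1 (chromosome 5, 91054834 to 91314547, minus strand) was at 1.62, 39.6 and 2.01 FPKM after NaB, Cur/Pip and combination treatment in HepG2, and at 1.85 FPKM in the control. In cells labelled Hep3B it was at 1.38, 6.05 and 7.31 FPKM after these treatments and at 1.12 FPKM in the control. In HepG2 the FPKM was highest with Cur/Pip alone. The log2 fold change was 3.83 in HepG2 and 1.74 in the Hep3B-labelled libraries after Cur/Pip, and 0.08 and 1.97 after the combination. MIR22HG and LUCAT1 were the 2 lncRNAs past the threshold in both lines after Cur/Pip (0.573% of all genes at the level rule were, and 0.395% on the higher side). By depth over annotated exons with a constant of 1, neither was past it in the Hep3B-labelled libraries after Cur/Pip. The limma estimate for LUCAT1 was 2.78 ± 0.92 (SE), with an adjusted p of 0.686. Counted over annotated exons, the HepG2 log2 fold change of LUCAT1 was 3.60 after Cur/Pip and 0.98 after the combination. The exonic depth itself was 0.0884, 12.6 and 1.21 after NaB, Cur/Pip and combination treatment and 0.120 in control HepG2 cells, so by this measure the combination was above control too. Its single transcript in the HepG2 combination library had 12455 bases and 3 exons, and the highest one with Cur/Pip alone had 6547 bases and 8 exons.

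LINC-PINT (chromosome 7, 130791264 to 131110176, minus strand) was at 4.73, 34.7 and 21.2 FPKM after NaB, Cur/Pip and combination treatment in HepG2, and at 3.65 FPKM in the control. Hep3B-labelled libraries had it at 5.53, 23.2 and 16.3 FPKM after treatment and at 8.13 FPKM in the control. All 4 libraries with Cur/Pip were above all 4 without it, also by exonic depth (1.27 to 6.58 against 0.255 to 0.816). However, 74.5% of the FPKM in the HepG2 combination library came from single-exon transcripts, against 0% to 26.9% in the other libraries. The multi-exon part there lay below the level of the Hep3B-labelled control, so without single-exon transcripts the separation is not complete. Log2 fold changes after Cur/Pip were 2.94 in HepG2 and 1.41 in the Hep3B-labelled libraries, which is under the threshold there, and limma gave 2.17 ± 0.46 (SE) with an unadjusted p of 0.00484 and an adjusted p of 0.686. MKLN1, a muskelin gene that starts 80 bases away on the other strand, was at 17.7, 64.9 and 33.6 FPKM after treatment and at 17.9 FPKM in the HepG2 control, and at 38.1, 25.4 and 35.3 FPKM and 33.2 FPKM in the Hep3B-labelled libraries. It was higher with LINC-PINT after Cur/Pip in HepG2 (1.81) and not in the Hep3B-labelled libraries (-0.38).

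CYTOR (chromosome 2, 87454781 to 87636740, plus strand) was at 124, 203 and 317 FPKM after NaB, Cur/Pip and combination treatment in HepG2, and at 67.7 FPKM in the control. Cells labelled Hep3B had it at 67.1, 103 and 141 FPKM after treatment and at 67.2 FPKM in the control. In HepG2 each treated library was above control, and the combination was highest in both lines. The log2 fold change after the combination was 2.21 in HepG2 and 1.06 in the Hep3B-labelled libraries, and limma gave 1.63 ± 0.39 (SE) with an adjusted p of 0.416. MIR4435-2HG, a near-identical copy of CYTOR over 6657 bases, was at 86.6, 187 and 277 FPKM after treatment and at 88.9 FPKM in the HepG2 control, and at 136, 120 and 59.5 FPKM and 81.4 FPKM in the Hep3B-labelled libraries. Because 90.0% of CYTOR and 100% of MIR4435-2HG lie in the shared sequence, the split of reads between both genes is uncertain.

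**Figure D2:**
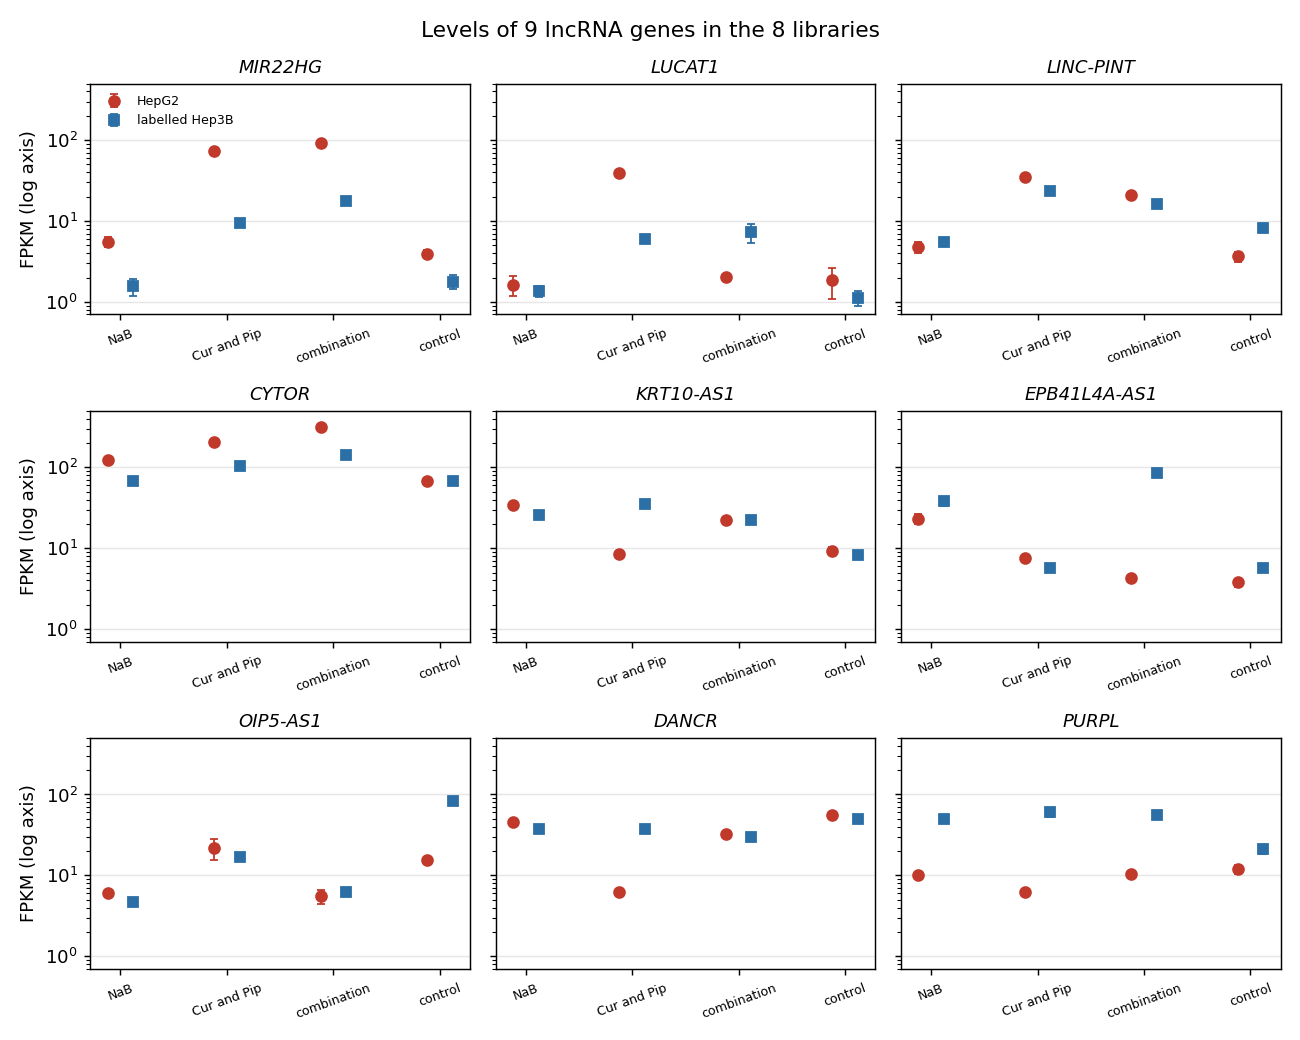
FPKM (log axis) of 9 lncRNA genes in the 8 libraries, with 95% intervals of the assembly within each library where they exceed the symbol. Circles are HepG2 and squares the Hep3B-labelled libraries. MIR22HG and LINC-PINT are high in all 4 libraries with Cur/Pip (9.49 to 92.2 FPKM and 16.3 to 34.7 FPKM), while LUCAT1 in HepG2 has its highest FPKM with Cur/Pip alone (39.6 FPKM). For LINC-PINT in the HepG2 combination library, 74.5% of the FPKM is in single-exon transcripts.

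After NaB, 2 lncRNAs passed the threshold in both lines, where 0.445% of all genes at the level rule did and 0.165% did on the higher side. KRT10-AS1 (chromosome 17, 40819101 to 40836270, plus strand), antisense to the keratin gene KRT10, was at 33.8, 8.36 and 22.2 FPKM after NaB, Cur/Pip and combination treatment in HepG2, and at 9.36 FPKM in the control. Hep3B-labelled libraries had it at 26.0, 35.6 and 22.1 FPKM after treatment and at 8.26 FPKM in the control. Its NaB fold changes were 1.75 and 1.54, and 1.502 and 1.44 over annotated exons. The exonic depth of KRT10-AS1 was 8.26, 5.49 and 15.1 in treated HepG2 cells and 2.27 in the control, and 7.16, 8.64 and 6.60 in treated Hep3B-labelled libraries and 2.01 in their control. By exonic depth all 6 treated libraries were above control, and the HepG2 library with the highest value was the combination. KRT10 was at 49.0 FPKM after NaB and 49.1 FPKM in control HepG2 cells, and at 91.3 and 86.2 FPKM in the Hep3B-labelled libraries, so KRT10 stayed near control where its antisense transcript was higher.

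EPB41L4A-AS1 (chromosome 5, 112160526 to 112164818, plus strand), host of the small nucleolar RNA SNORA13, was at 22.9, 7.66 and 4.31 FPKM after NaB, Cur/Pip and combination treatment in HepG2, and at 3.78 FPKM in the control. In cells labelled Hep3B it was at 38.5, 5.75 and 85.8 FPKM after treatment and at 5.69 FPKM in the control. The 3 high libraries (NaB in both lines and the combination in those labelled Hep3B) were also the 3 whose highest transcript was short, at 471 to 572 bases, while the other 5 had transcripts of 2518 to 4385 bases. Over annotated exons the NaB fold changes were 0.23 in HepG2 and 0.50 in the Hep3B-labelled libraries, against 2.32 and 2.56 in FPKM. The combination in the Hep3B-labelled libraries had 3.70 in FPKM and 1.39 over annotated exons, where it was still the highest.

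GIHCG, a lncRNA described in HCC, was at 17.7, 10.04 and 15.7 FPKM after NaB, Cur/Pip and combination treatment in HepG2, and at 2.84 FPKM in the control, with log2 fold changes of 2.28, 1.52 and 2.12. Cells labelled Hep3B had GIHCG at 17.4, 15.4 and 18.3 FPKM after treatment and at 10.6 FPKM in the control. It was above control in all 6 treated libraries, and by limma the NaB estimate was 1.48 ± 0.47 (SE) with an adjusted p of 0.898. STAG3L4 and RNF216P1 were picked out after their values were seen. STAG3L4, related to the cohesin gene STAG3, was past the threshold in all treated HepG2 libraries, with 8.85, 8.32 and 10.2 FPKM after NaB, Cur/Pip and combination treatment and 1.95 FPKM in the control. RNF216P1 was at 13.9, 17.4 and 25.1 FPKM after treatment and at 6.43 FPKM in control HepG2 cells, and at 10.97, 14.4 and 18.9 FPKM and 6.98 FPKM in the Hep3B-labelled libraries. The exonic depth of RNF216P1 was 3.02, 5.37 and 3.37 after treatment and 2.64 in control HepG2 cells, and 1.62, 2.32 and 3.61 and 2.13 in the Hep3B-labelled libraries, so by this measure HepG2 was highest with Cur/Pip alone and NaB in the Hep3B-labelled libraries lay below control. For STAG3L4 the exonic depth was 1.97, 2.41 and 2.10 after treatment and 0.967 in control HepG2 cells.

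Among the genes that were lower, OIP5-AS1 stood first. OIP5-AS1, the human counterpart of the cyrano RNA that directs decay of miR-7, was at 4.68, 17.1 and 6.25 FPKM after NaB, Cur/Pip and combination treatment in the Hep3B-labelled libraries, and at 82.9 FPKM in the control. In HepG2 it was at 6.05, 21.8 and 5.48 FPKM after treatment and at 15.5 FPKM in the control. The log2 fold changes in the Hep3B-labelled libraries were -3.88, -2.21 and -3.53. The control level came from a single transcript of 415 bases with 4 exons, and the treated libraries held transcripts of 7592 to 8853 bases. Over annotated exons the depth was 1.9, 6.3 and 2.1 in the treated libraries and 1.6 in the control, and the fold changes had the opposite sign (0.11, 1.48 and 0.24). In HepG2 the fold changes over annotated exons were -1.07, -1.13 and -1.88.

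DANCR, an abundant host of SNORA26, was at 45.8, 6.28 and 32.7 FPKM after NaB, Cur/Pip and combination treatment in HepG2, and at 55.6 FPKM in the control. For DANCR the Hep3B-labelled libraries were at 37.7, 37.3 and 29.8 FPKM after treatment and at 49.4 FPKM in the control. DANCR was below control in all 6 treated libraries, and past the threshold only after Cur/Pip in HepG2 (-2.96). That library had a transcript of 5456 bases and the other 7 had transcripts of 942 to 1080 bases, and over annotated exons the fold change was -0.74. MIR1915HG, the host of miR-1915, was at 22.8, 1.63 and 4.68 FPKM after treatment and at 5.80 FPKM in control HepG2 cells, so that NaB and Cur/Pip lay on opposite sides of the control. RNASEH1-DT was at 28.8, 14.3 and 2.62 FPKM after treatment and at 12.6 FPKM in control HepG2 cells, lowest after the combination (-1.91). Over annotated exons that fold change of RNASEH1-DT was -0.22, and its highest transcript had 3558 bases in the combination library and 782 bases in the control.

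RAB30-DT, which starts 129 bases from RAB30, was past the threshold in HepG2 after NaB (2.41) and after Cur/Pip (3.24). It had 15.6, 28.4 and 4.04 FPKM there after NaB, Cur/Pip and combination treatment and 2.12 FPKM in the control. Hep3B-labelled libraries had RAB30-DT at 18.2, 34.0 and 36.4 FPKM after treatment and at 35.9 FPKM in the control. NUTM2A-AS1 had 7.50, 17.4 and 38.2 FPKM after treatment and 2.49 FPKM in control HepG2 cells. In the Hep3B-labelled libraries it had 10.3, 19.1 and 11.1 FPKM and 8.77 FPKM. A near-identical copy exists for 99.4% of the longest transcript of NUTM2A-AS1. Over annotated exons the highest fold change of RAB30-DT was 0.57 and that of NUTM2A-AS1 was 0.99. Depth over annotated exons runs lower than FPKM, so that the constant of 1 weighs more. With a constant of 0.1, 22 of 39 fold changes past the threshold in named genes remained past it in the same direction, 13 were under it and 4 changed sign. The 22 included all of those of MIR22HG, LINC-PINT, KRT10-AS1, GIHCG and CYTOR, and those of LUCAT1 after Cur/Pip.

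**Figure D3:**
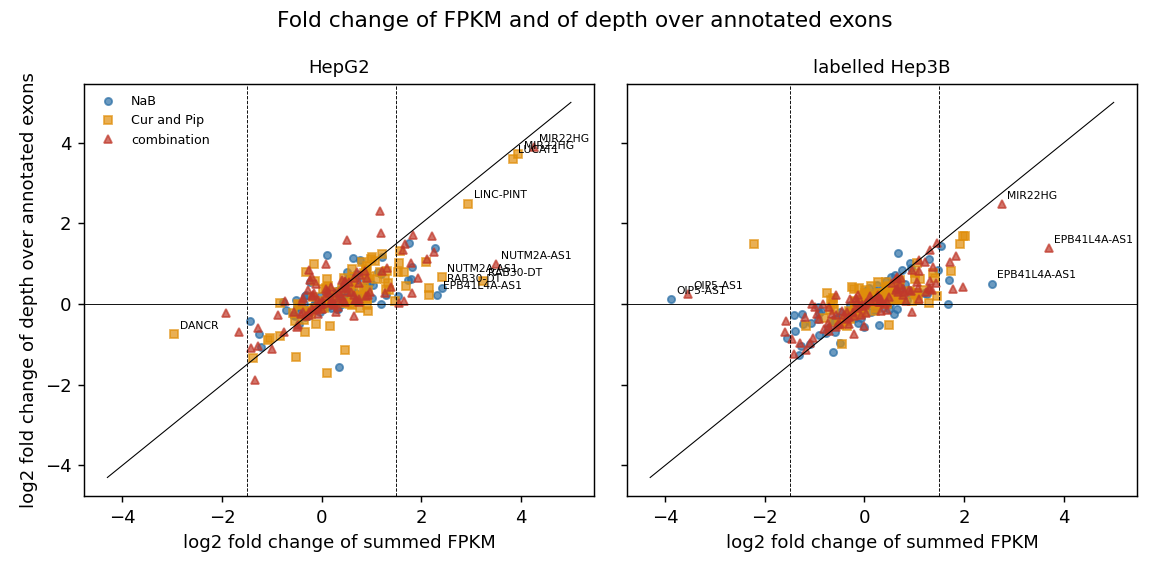
Log2 fold change of summed FPKM (x axis) and of depth over annotated exons (y axis) for the 102 lncRNA genes in 3 treatments, with HepG2 on the left and the Hep3B-labelled libraries on the right. MIR22HG and LINC-PINT in HepG2 lie near the diagonal (3.94 and 3.72, and 2.94 and 2.48, after Cur/Pip), while OIP5-AS1 in the Hep3B-labelled libraries lies far from it (-3.88 and 0.11 after NaB).

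PURPL was at 49.8, 59.9 and 55.3 FPKM after NaB, Cur/Pip and combination treatment in the Hep3B-labelled libraries, and at 21.1 FPKM in the control. In HepG2 PURPL was at 9.97, 6.20 and 10.3 FPKM after treatment and at 11.9 FPKM in the control. PVT1, which neighbours MYC, was at 10.01, 21.9 and 16.4 FPKM after treatment and 8.33 FPKM in control HepG2 cells, and at 31.9, 31.3 and 42.0 FPKM and 16.3 FPKM in the Hep3B-labelled libraries. PVT1 was above control in all 6 treated libraries without passing the threshold.

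Of a list of 15 stress-linked lncRNAs, 11 belonged to the 102. The list was chosen with earlier results of these data known, so its counts are a description and no test. In HepG2 1, 4 and 4 of the 11 were past the threshold on the higher side after NaB, Cur/Pip and combination treatment, and 0, 1 and 0 on the lower side. Of all genes at the level rule, 1.26%, 4.51% and 4.38% were higher there and 1.54%, 5.64% and 5.47% lower. In the Hep3B-labelled libraries 1, 2 and 3 were higher and 2, 1 and 1 were lower. There 1.23%, 1.41% and 2.10% of all genes at the level rule were higher and 3.16%, 0.853% and 3.55% lower. By depth over annotated exons 0, 3 and 3 of the 11 were past the threshold in HepG2, and 0, 0 and 1 in the Hep3B-labelled libraries. The lower ones by FPKM include OIP5-AS1, whose sign turned over annotated exons. The medians of the 11 were 0.28, 1.07 and 0.48 in HepG2, and -0.12, 0.56 and 0.92 in the Hep3B-labelled libraries, where all 102 genes had 0.34, 0.54 and 0.30, and 0.06, 0.22 and 0.13. Of 22 liver-linked lncRNAs, 4 were among the 102 (CYTOR, DANCR, PVT1 and MIR22HG). HULC, a liver cancer lncRNA outside the 102, was at 21.9, 4.11 and 6.31 FPKM after NaB, Cur/Pip and combination treatment and at 7.69 FPKM in control HepG2 cells, and was listed at 0 in the Hep3B-labelled libraries. HEIH, from the same list, went the other way, at 0 in the HepG2 libraries and at 11.8 to 17.3 FPKM in the Hep3B-labelled ones. Of the 22, 6 to 8 reached 1 FPKM in the HepG2 libraries and 7 to 9 in those labelled Hep3B.

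The fold changes of both lines were then set side by side. The sign was shared by 61, 62 and 74 of the 102 genes after NaB, Cur/Pip and combination treatment (59.8%, 60.8% and 72.5%), where protein-coding genes shared it in 57.3%, 64.1% and 67.1%. Across the 102 genes Pearson's r was 0.32, 0.33 and 0.44, a description over genes that share libraries. No lncRNA was past the threshold in opposite directions in the 2 lines after the same treatment. Of all 7857 genes at the level rule only 10, 9 and 10 were, so this does not set the lncRNAs apart.

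**Figure D4:**
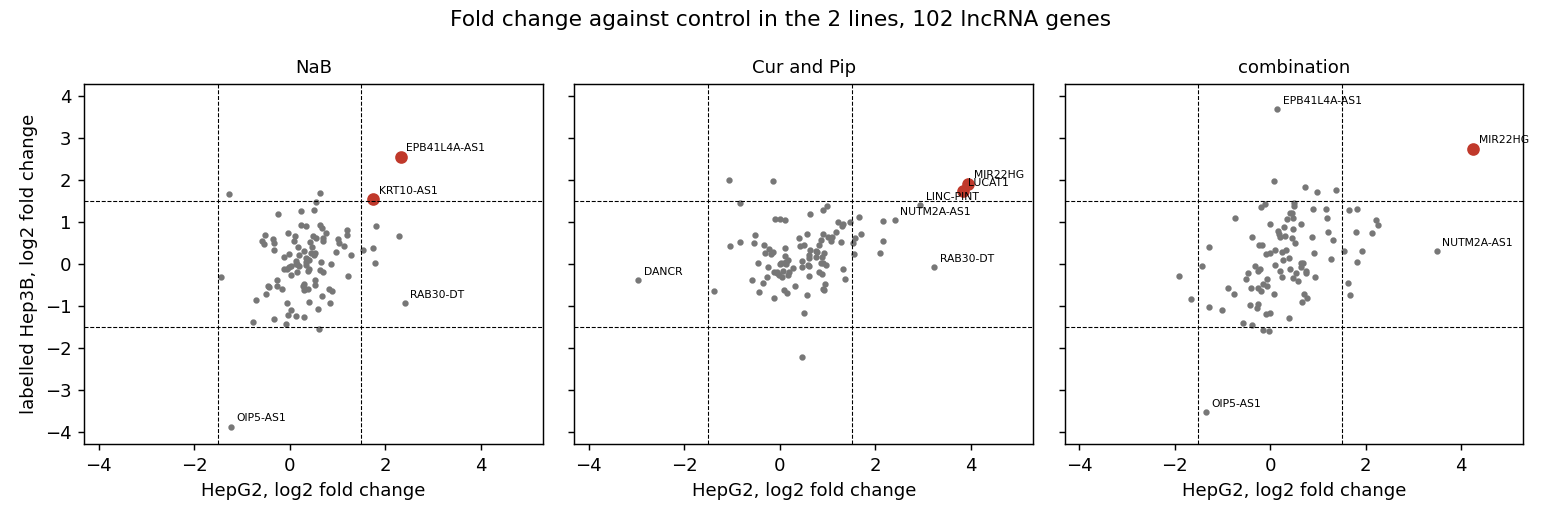
Log2 fold change against control in HepG2 (x axis) and in the Hep3B-labelled libraries (y axis) for the 102 lncRNA genes after NaB, Cur/Pip and combination treatment. Red points are past 1.5 in both lines in the same direction, namely EPB41L4A-AS1 and KRT10-AS1 after NaB, MIR22HG and LUCAT1 after Cur/Pip, and MIR22HG after the combination, and dashed lines mark the threshold. Of these, only MIR22HG after the combination was past 1.5 in both lines by depth over annotated exons with a constant of 1.

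The combination was also compared with the sum of the single treatments on the log2 scale. For MIR22HG the combination was -0.10 from that sum in HepG2 and 0.95 above it in the Hep3B-labelled libraries. For LUCAT1 it was -3.63 from the sum in HepG2 by FPKM and 0.07 from it in the Hep3B-labelled libraries, and for LINC-PINT -0.99 and 0.00. By limma over both lines 0 of the 102 genes were called (0.0194% of all genes were), with 0 at an unadjusted p under 0.05 (2.34% of all genes) and a lowest adjusted p of 0.999.

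The motifs of the 4 start-site windows printed above were searched on both strands in all RefSeq windows of the same length. The windows of 46 of the 102 genes were found in that table. LUCAT1 holds 1 match to the antioxidant response element core TGACNNNGC, as the reverse complement 54 bases before the start, which overlaps an AP-1 element TGACTCA. LINC-PINT holds 1 match to TGACNNNGC 109 bases before its start. CYTOR holds 2 matches to TGACTCA as the reverse complement, 19 and 9 bases before the start, and 1 CCAAT box just after it. MIR22HG holds 2 matches to CCAAT, 183 bases before the start and, as the reverse complement, 88 bases before it. Positions are those of the first printed base of a match. TGACNNNGC was present in 13.3% of all 35116 windows and in 14 of the 59 windows of the lncRNA genes (23.7%), TGACTCA in 4.95% and in 5 (8.47%), and CCAAT in 34.6% and in 28 (47.5%). The cyclic AMP response element TGACGTCA (1.85% of all windows), the C/EBP-ATF element TGATGNAAT (0.991%) and the E-box CACGTG (7.26%) were not matched in the 4 windows.

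The last comparison set the 4 HepG2 libraries against the 4 labelled Hep3B, matched by treatment. The 4 libraries of a line are 4 conditions and not replicates, so the p-values measure only the spread between these libraries. Of the 102 genes, 23 differed between the lines by limma with an adjusted p under 0.05, 9 higher and 14 lower in HepG2, where 24.7% of all genes tested did. Libraries of the lines did not overlap for 21 of the 23, a count that rests on the same values as the calls and was not made over all genes. With 1 library less its matched partner no longer carries information, and 2 residual degrees of freedom are left. Then 9 genes passed without the NaB library or the combination library of either line. Without either control 11 passed, and without either library with Cur/Pip alone 13 did. Of all genes tested, 11.9762% to 13.6957% passed in these fits, so the share fell among all genes too. The lower counts thus do not set the lncRNAs apart.

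MIR4458HG, the host of miR-4458, was at 1.52, 1.85, 2.22 and 1.02 FPKM in HepG2 after NaB, Cur/Pip, the combination, and in the control, against 21.2, 13.9, 16.9 and 32.6 FPKM in the Hep3B-labelled libraries. The difference was -3.02 ± 0.35 (SE) on the log2 scale, with an adjusted p of 0.0054 by limma. Over annotated exons the limma difference of MIR4458HG was -0.99 (adjusted p of 0.0170), and its highest transcripts had 1815 to 3131 bases in HepG2 and 555 to 792 bases in the Hep3B-labelled libraries. ANXA2R-OT1 was at 2.77, 2.24, 2.74 and 2.91 FPKM in HepG2, against 14.0, 21.98, 18.7 and 27.4 FPKM in the Hep3B-labelled libraries (-2.52 ± 0.25, adjusted p of 0.00341 by limma). With transcripts of 2 or more exons only, ANXA2R-OT1 kept a value in the HepG2 NaB library alone (2.55 FPKM). It was assembled as a single exon in all others, so that setting cannot test its difference between the lines. CRYBB2P1, a crystallin pseudogene transcript, was at 4.54, 6.55, 13.2 and 6.47 FPKM in HepG2, against 34.9, 52.5, 41.8 and 51.8 FPKM. DLEU1, the lncRNA next to the miR-15a and miR-16 host DLEU2, was at 11.2, 8.08, 14.5 and 4.34 FPKM in HepG2, against 48.2, 33.5, 37.0 and 29.7 FPKM. None of these 4 genes overlapped between the lines, and PURPL and PVT1, whose levels are given above, were also lower in HepG2. Over annotated exons limma gave DLEU1 a difference of -0.52 (adjusted p of 0.0843) and PURPL one of 0.61 (adjusted p of 0.0651), so the PURPL difference changed sign and neither was called.

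On the higher side in HepG2, ENSG00000290846, a gene on chromosome 2 with 100% of its longest transcript in a near-identical copy, was at 66.1, 76.3, 145 and 40.4 FPKM in HepG2 after NaB, Cur/Pip, the combination, and in the control, against 8.91, 10.3, 10.6 and 10.2 FPKM in the Hep3B-labelled libraries (2.77 ± 0.34, adjusted p of 0.00612 by limma). ENSG00000291100 was at 7.55, 34.8, 19.6 and 22.2 FPKM, against 1.67, 3.17, 3.54 and 2.34 FPKM. NORAD differed by 1.51 ± 0.25 (adjusted p of 0.0134 by limma), with 89.5 to 126 FPKM in HepG2 against 30.4 to 43.98 FPKM. MIR22HG differed by 1.83 ± 0.40 (adjusted p of 0.0292 by limma), although its levels overlapped between the lines. The lines also differ in the hepatocyte and VIM levels given at the start, and their part in these differences cannot be told apart from the line label.

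**Figure D5:**
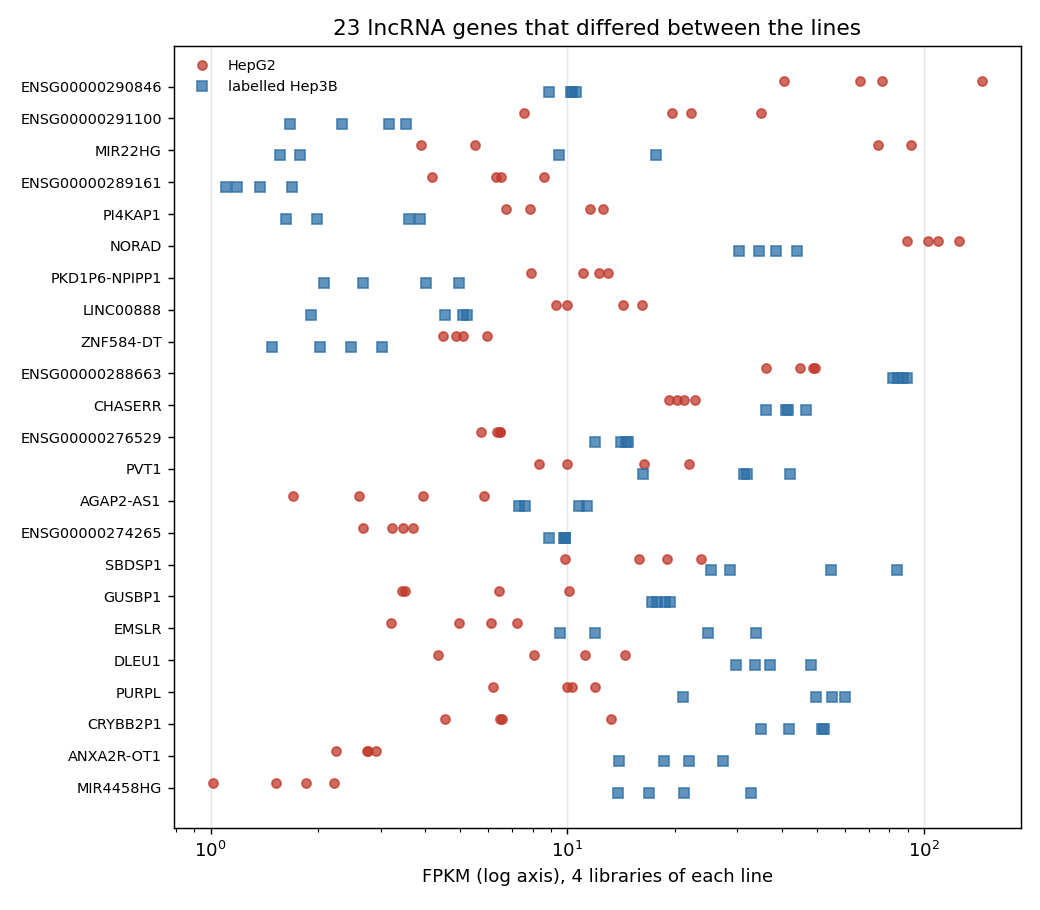
FPKM (log axis) of the 23 lncRNA genes that differed between the lines by limma, with 4 circles for HepG2 above 4 squares for the Hep3B-labelled libraries, sorted by the difference. MIR4458HG at the bottom is at 1.02 to 2.22 FPKM in HepG2 and 13.9 to 32.6 FPKM in the Hep3B-labelled libraries, and ENSG00000290846 at the top is at 40.4 to 145 FPKM and 8.91 to 10.6 FPKM.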

How the data were processed

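RNA-seq of HepG2 cells and cells labelled Hep3B was analysed from 8 transcript assemblies, 1 per condition. Per the study's methods and the labels, the authors prepared directional libraries, aligned reads to GRCh38 with STAR, and assembled transcripts for each library with Cufflinks, which gave FPKM and a 95% interval per transcript (tool versions are not stated). The deposited tables hold FPKM values, not counts, so no count test was run. Each transcript went to the GENCODE 44 gene that by bedtools 2.31.1 held at least 50% of its exonic bases on its strand, and the FPKM was summed per gene. Of assembled introns, 94.8% to 96.4% were in this annotation. Fold changes are differences of log2(FPKM + 1), so they understate the change of low genes. Limma 3.58.1 in R 4.3.3 fitted line plus treatment over all genes at 1 FPKM or more in at least 1 library, and p-values were adjusted by Benjamini-Hochberg. Near-identical copies were found with blastn 2.17.0. Depth over annotated exons was used as a second measure. Fragments were estimated from coverage, so depth is approximate. The fit and the fold step were tested on simulated data. The members and gene lists were chosen with earlier results of these data known. Named genes were those with the highest level, the largest or smallest changes and ranges, those past the threshold in both lines, list members, and limma calls. One gene and the results tied to it are not reported here.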

Additional observations from a re-analysis of the deposited data

Results flagged for a closer look

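Some genes lay on opposite sides of control in the lines in all 3 treatments. The difference between the lines was not tested, since each treatment has 1 library per line, and the 3 treatments of a line share 1 control. For PURPL the mean log2 fold change was -0.43 (HepG2) and 1.34 (Hep3B-labelled libraries), a difference of -1.76, and over annotated exons all 6 treated libraries were above control. ENSG00000290450 had means of -0.97 and 0.97, a difference of -1.93. MIR4458HG had means of 0.50 and -0.90, a difference of 1.39, but its exonic depth in HepG2 was 0.331, 0.466 and 0.549 after NaB, Cur/Pip and combination treatment against 0.440 in the control, so that NaB was below control by this measure. NORAD had means of 0.32 and -0.35, a difference of 0.67.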

How the results depend on the processing

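Counts of lncRNAs past the fold threshold depended on several settings, given in the order NaB, Cur/Pip, combination. Except for depth over annotated exons with a constant of 1, these counts were not made over all genes and cannot set the lncRNAs apart. With a constant of 5 added to FPKM they were 3, 9 and 6 in HepG2 and 3, 2 and 3 in Hep3B-labelled libraries, and with 0.1 they were 11, 8 and 16 in the Hep3B-labelled ones. A fold threshold of 1 gave 18, 28 and 26 in HepG2 against 18, 19 and 32 in Hep3B-labelled libraries, and in the same form a threshold of 2 gave 3, 9 and 5 against 2, 2 and 3. A level rule of 5 FPKM left 1, 4 and 4 against 2, 1 and 0, a rule of 2 FPKM left 5 (HepG2, NaB) and 3 (Hep3B-labelled, Cur/Pip), and a rule of 0.5 FPKM gave 23 (HepG2, Cur/Pip). Without transcripts that touch exons of 2 or more genes, the counts were 7 and 7 in HepG2 for Cur/Pip and the combination, and 3 and 2 in Hep3B-labelled libraries for NaB and Cur/Pip; this setting leaves out all transcripts of MIR22HG and nearly all of those of CYTOR. Depth over annotated exons gave 2, 4 and 7 against 0, 2 and 2, and 2, 4 and 4 against 0, 1 and 2 for genes with under 10% in a near-identical copy. By this depth 159, 593 and 557 of all 7857 genes at the level rule passed the threshold in HepG2. In the Hep3B-labelled libraries 107 and 337 did so after Cur/Pip and the combination. The share of the 102 lncRNAs was close to or below that of all genes, except after Cur/Pip in the Hep3B-labelled libraries. With a constant of 0.1 the exonic counts were 7, 12 and 14 against 6, 5 and 7. This constant and the near-identical copy settings were chosen after seeing the data. The median for Cur/Pip in HepG2 was 0.29 with a constant of 5, 0.16 without spanning transcripts, 0.18 with the largest transcript only, 0.26 over annotated exons, and 0.17 over exons without copies. In Hep3B-labelled libraries it was 0.012 without spanning transcripts (Cur/Pip) and -0.14 with the largest transcript (combination). OIP5-AS1 turned to 0.11, 1.48 and 0.24 over annotated exons in Hep3B-labelled libraries, and to 0.17, 1.89 and 0.36 with a constant of 0.1. GUSBP11 after NaB there turned to -0.0062 and, with a constant of 0.1, -0.010, and DLEU1 after the combination in HepG2 turned to -0.53 without spanning transcripts. The causes were not tested. In limma, leaving out 1 library gave 9 to 13 of the 102 genes between the lines, where 11.9762% to 13.6957% of all genes tested passed. No paired analysis was possible because replicate numbers pair no libraries within a line; the limma fit itself matched the treatments across the lines. With 1 library each, the level of a condition cannot be told apart from that of its library, and the libraries labelled Hep3B lack hepatocyte markers.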
